A study of Arabidopsis thaliana with 18 samples.

Results

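A set of 57 Arabidopsis thaliana genes was examined whose transcripts were higher in warm-grown than in cooler-grown wild-type seedlings, with a difference at least 0.75 as large in a histone H3.3 knock-down line but at most 0.5 as large in a mutant of ELF7. The choice bears on the difference between temperatures, and on the level only through a minimum in the wild type in the warm. They were chosen from 27655 genes, of which 27445 are nuclear. The level of a group was taken as log2(mean TPM + 1), where TPM, a level per gene length, counts transcripts scaled to the same total in every library, and the warmth difference as the level at 27 °C minus that at 21 °C within a genotype. A gene was kept if its mean in Col at 27 °C was at least 5 TPM, its warmth difference in Col was at least 1, that in elf7-3 was at most 0.5 of Col's, and that in h3.3kd was at least 0.75 of Col's. In Col alone 664 genes met both conditions set on Col. Of these, 190 had a warmth difference in elf7-3 of at most 0.5 of Col's. The 190 divide into the 57 described here, 91 that were blunted to the same degree in h3.3kd, and 42 with an intermediate value in h3.3kd. The converse pattern, blunted in h3.3kd and kept in elf7-3, was met by 74 genes.

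The libraries came from whole seedlings 7 days old that had been raised in short days, 3 libraries for each of 6 groups. The groups are elf7-3 at 27 °C and 21 °C, h3.3kd at 27 °C and 21 °C, and Col, the wild type, at 27 °C and 21 °C. elf7-3 is a mutant allele of ELF7, and h3.3kd is a line with lowered histone variant H3.3. How either line was made is not given in the sources used here, and each genotype is a single line. The labels do not say whether the replicates are separate growths. The p-values below therefore reflect spread among libraries alone, and that spread could be technical.

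ELF7 encodes a subunit of the Paf1 complex, which travels with RNA polymerase II along genes and is needed for ubiquitination of histone H2B and methylation of histone H3 in transcribed chromatin. H3.3 is the H3 variant that is placed into chromatin outside DNA replication. In moderate warmth Arabidopsis seedlings elongate their hypocotyls and petioles. In that response the transcription factor PIF4 and its relatives raise auxin synthesis through YUC enzymes, and auxin then induces the Aux/IAA, SAUR and GH3 gene families.

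The labelled genotypes were checked first. ELF7 itself was at 12.5 to 13.4 TPM in elf7-3 at 27 °C and 8.50 to 9.33 TPM at 21 °C, against 40.2 to 41.1 TPM and 27.9 to 31.2 TPM in Col. HTR8, 1 of 3 genes for H3.3, was at 14.7 to 19.2 TPM in h3.3kd at 27 °C and 17.3 to 20.7 TPM at 21 °C, against 184 to 197 TPM and 329 to 354 TPM in Col. HTR4 was at 51.3 to 58.5 TPM and 43.8 to 45.5 TPM in h3.3kd, against 330 to 347 TPM and 423 to 429 TPM in Col. HTR5, the most abundant of the 3, was lowered less, at 258 to 271 TPM and 262 to 281 TPM in h3.3kd, against 432 to 473 TPM and 591 to 611 TPM in Col. Between 18563 and 19225 genes reached 1 TPM in a library. TPM are scaled to a fixed sum and keep no read depth, so no interval from counts can be given. In replicate 1 of h3.3kd at 27 °C, organelle genes took 3.66% of the TPM, against 0.128% to 0.343% in the other 17 libraries, and removing organelle genes left the number of chosen genes at 57. Fewer cells of a type and less RNA per cell cannot be told apart in whole seedlings.

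Every comparison that chose the 57 genes is given as a description and without a test. By group means the median warmth difference of the 57 genes was 0.51 in elf7-3 (range -1.18 to 1.06), 1.43 in h3.3kd (0.79 to 3.14) and 1.32 in Col (1.01 to 3.102), on the log2(TPM + 1) scale. Over the 664 genes the medians were 0.94, 0.89 and 1.31, and over the 20048 genes that reached 1 TPM in 3 or more libraries they were 0.07, 0.04 and 0.08, in the same order of genotypes. All 57 genes passed that filter. In 19 of them the warmth difference in elf7-3 was under 0.25 of Col's, and in 24 the difference in h3.3kd was above that in Col. All 3 libraries at 27 °C lay above all 3 at 21 °C for 40 of the 57 genes in elf7-3 (33.9% of all tested genes), 56 in h3.3kd (29.8% of all genes) and 56 in Col (37.4% of all genes). The summed level of the 57 genes was 2690 to 2877 TPM in elf7-3 at 27 °C and 1903 to 2083 TPM at 21 °C. The sums were 4285 to 4724 TPM and 1906 to 1967 TPM in h3.3kd, and 4155 to 4476 TPM and 1672 to 1705 TPM in Col. Summed over the set, the libraries of elf7-3 therefore stood below those of both other genotypes at 27 °C, while at 21 °C they overlapped with h3.3kd and stood above Col. These sums weigh the most abundant gene, AT1G74470, far above the others. At 21 °C it alone averaged 746 TPM in elf7-3, 1028 TPM in h3.3kd and 684 TPM in Col. The overlap with h3.3kd at 21 °C therefore depends on this gene and does not describe the set as a whole.

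**Figure D1:**
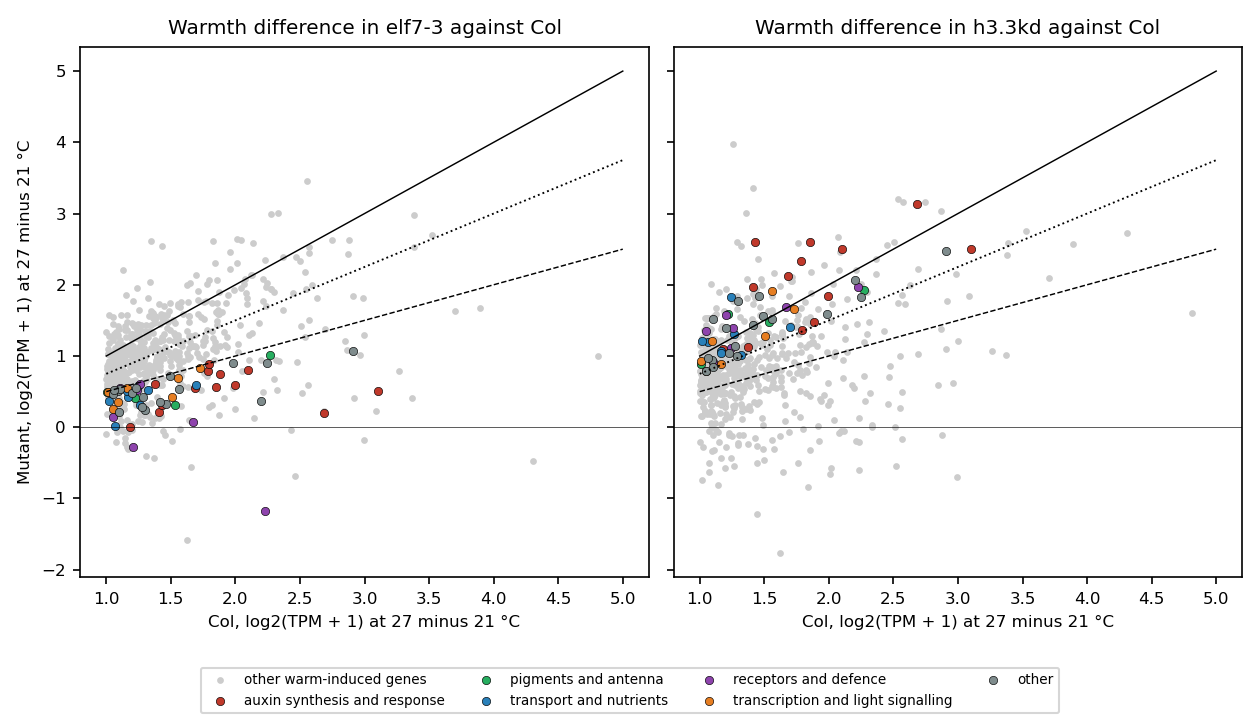
Warmth difference (27 °C minus 21 °C, log2(TPM + 1) of group means) of 664 genes, in elf7-3 (left) and h3.3kd (right) on the vertical axis and in Col on the horizontal axis. Coloured points are the 57 chosen genes by role and grey points are the other genes. The solid line marks equality with Col, the dotted line 0.75 of Col and the dashed line 0.5 of Col, so the coloured points lie below the dashed line on the left and above the dotted line on the right by the way they were chosen.

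Auxin genes were the largest group with a shared role. The chosen genes held YUC3, 4 Aux/IAA genes, 5 SAUR genes and 3 GH3 genes. IAA29, which encodes a short-lived Aux/IAA repressor of auxin-responsive transcription, occupies bases 15583332 to 15584903 of chromosome 4, in TAIR10.1 like all positions given here. Its 3 libraries had 5.03, 5.73 and 5.98 TPM at 27 °C and 5.88, 2.26 and 2.77 TPM at 21 °C in elf7-3. In h3.3kd the values were 14.6, 18.7 and 14.4 TPM at 27 °C and 1.44, 2.04 and 2.44 TPM at 21 °C. Col had 36.6, 39.7 and 41.0 TPM at 27 °C and 3.47, 3.77 and 3.77 TPM at 21 °C. The temperatures overlapped in elf7-3 through its replicate 1 at 21 °C and stood apart in both other genotypes. The fitted warmth difference of IAA29 was 0.58 ± 0.20 in elf7-3, 2.51 ± 0.20 in h3.3kd and 3.101 ± 0.20 in Col (log2(TPM + 1) ± SE, n = 3 per group, here and below).

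IAA1, of the same family, had 19.7, 19.5 and 17.9 TPM at 27 °C and 13.6, 11.41 and 11.7 TPM at 21 °C in elf7-3. The h3.3kd values were 49.6, 53.2 and 45.4 TPM at 27 °C and 14.4, 15.0 and 9.86 TPM at 21 °C. In Col they were 46.4, 44.7 and 47.0 TPM at 27 °C and 11.7, 11.8 and 8.89 TPM at 21 °C. At 27 °C elf7-3 was below both other genotypes in every library, and at 21 °C all 3 genotypes overlapped. IAA2 averaged 104 ± 13.3 TPM at 27 °C and 55.7 ± 6.93 TPM at 21 °C in elf7-3, 175 ± 21.9 and 67.7 ± 8.05 TPM in h3.3kd, and 234 ± 9.01 and 66.6 ± 3.04 TPM in Col (SD, n = 3 each, here and below). IAA2 lies at the edge of the rule, with a warmth difference in elf7-3 at 0.498 of Col's. IAA7 was the most abundant of the 4, at 372 ± 24.1 and 244 ± 6.86 TPM in elf7-3, 313 ± 28.5 and 143 ± 24.0 TPM in h3.3kd, and 502 ± 22.1 and 193 ± 1.89 TPM in Col, each at 27 and then 21 °C. Unlike the other 3, IAA7 was higher in elf7-3 than in Col in every library at 21 °C.

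SAUR20, SAUR21, SAUR22 and SAUR23 encode small proteins that promote cell expansion by keeping the plasma membrane proton pump active, as known from their close relative SAUR19. They lie in a cluster on chromosome 5, SAUR20 from 5966183 to 5966785, SAUR21 from 5968352 to 5969190, SAUR22 from 5974341 to 5975087 and SAUR23 from 5975780 to 5976589, each with 1 exon. Their coding sequences are 87.7% to 93.0% identical, so reads may have been shared among them and with SAUR19 and SAUR24. SAUR22 had 1.23, 2.71 and 1.94 TPM at 27 °C and 1.12, 1.06 and 2.54 TPM at 21 °C in elf7-3. For h3.3kd the values were 24.1, 33.2 and 31.9 TPM at 27 °C and 1.395, 2.86 and 3.21 TPM at 21 °C. For Col they were 7.00, 14.3 and 14.1 TPM at 27 °C and 0.708, 0.934 and 1.32 TPM at 21 °C. In elf7-3 the temperatures overlapped, and in h3.3kd the warm libraries exceeded those of Col. SAUR23 averaged 2.34 ± 1.13 TPM at 27 °C and 1.68 ± 0.212 TPM at 21 °C in elf7-3, 22 ± 1.78 and 2.79 ± 0.564 TPM in h3.3kd, and 9.48 ± 2.18 and 2.88 ± 0.496 TPM in Col. At 27 °C the means of SAUR20 and SAUR21 were 4.35 ± 0.994 and 6.55 ± 1.77 TPM in elf7-3, 26.8 ± 5.45 and 28.6 ± 1.15 TPM in h3.3kd, and 14.9 ± 2.80 and 14.8 ± 3.13 TPM in Col. All 4 genes of the cluster thus had the order elf7-3 below Col below h3.3kd at 27 °C. SAUR28, on chromosome 3 and at most 79.2% identical to them, was noisier, at 3.44 ± 2.07, 9.56 ± 3.21 and 7.78 ± 2.41 TPM at 27 °C in elf7-3, h3.3kd and Col.

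GH3 enzymes join auxin to amino acids and so lower its active form. GH3.5 had 48.0, 54.7 and 46.9 TPM at 27 °C and 34.1, 36.7 and 30.9 TPM at 21 °C in elf7-3. It had 136, 167 and 134 TPM at 27 °C and 36.1, 34.7 and 27.5 TPM at 21 °C in h3.3kd. The Col libraries held 121, 129 and 139 TPM at 27 °C and 40.8, 38.3 and 40.0 TPM at 21 °C. GH3.5 was therefore below Col in elf7-3 at both temperatures, with the wider gap at 27 °C. GH3.3 averaged 10.3 ± 2.64 and 6.64 ± 0.866 TPM in elf7-3, 26.4 ± 5.21 and 3.53 ± 0.751 TPM in h3.3kd, and 32.2 ± 2.40 and 8.21 ± 0.482 TPM in Col at 27 and 21 °C. GH3.2 differed in kind, with 17.36, 17.7 and 15.9 TPM at 27 °C and 13.4, 22.8 and 14.6 TPM at 21 °C in elf7-3. Its means were 14.8 ± 1.48 and 6.43 ± 0.327 TPM in h3.3kd and 22.7 ± 2.05 and 9.44 ± 1.34 TPM in Col. GH3.2 in elf7-3 was already high at 21 °C, above every Col library at that temperature, and it showed no warmth difference (0.04 ± 0.14 fitted).

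YUC3 encodes a flavin monooxygenase that makes auxin. Its libraries had 3.73, 3.73 and 3.03 TPM at 27 °C and 2.96, 2.70 and 3.01 TPM at 21 °C in elf7-3. The values were 11.6, 14.7 and 9.39 TPM at 27 °C and 2.37, 1.98 and 2.54 TPM at 21 °C in h3.3kd, and 5.68, 5.39 and 5.32 TPM at 27 °C and 0.932, 1.77 and 1.60 TPM at 21 °C in Col. elf7-3 was below Col at 27 °C and above it at 21 °C, with no overlap at either temperature, and h3.3kd was above Col at both. Other YUC genes that were warm-induced in Col were not in the set. YUC8 averaged 6.02 and 4.97 TPM in elf7-3, 13.9 and 3.14 TPM in h3.3kd, and 32.9 and 2.99 TPM in Col at 27 and 21 °C, so its warmth difference was 0.23 in elf7-3 and 1.85 in h3.3kd, against 3.09 in Col. YUC2 and YUC9 were blunted in both mutants.

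**Figure D2:**
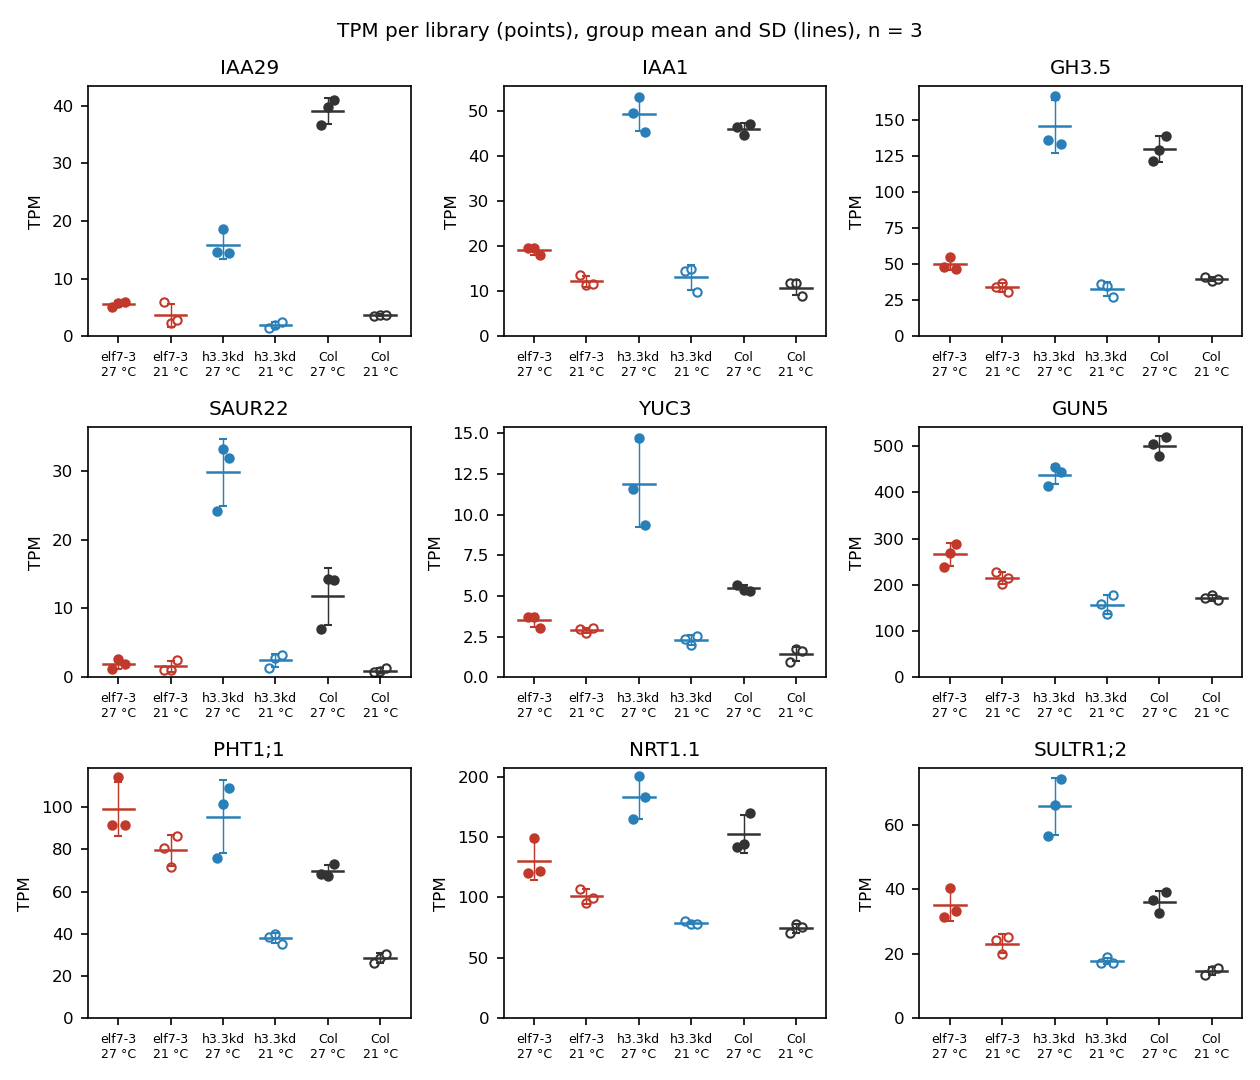
TPM of 9 of the chosen genes in each library (points) with the group mean (horizontal line) and SD (error bar), n = 3 per group, for elf7-3 (red), h3.3kd (blue) and Col (black), filled at 27 °C and open at 21 °C. IAA29, IAA1, GH3.5, SAUR22 and GUN5 are below Col in every elf7-3 library at 27 °C; at 21 °C IAA29, IAA1 and SAUR22 overlap with Col, GH3.5 is below it and GUN5 above it. PHT1;1, NRT1.1 and SULTR1;2 are higher in elf7-3 than in Col in every library at 21 °C.

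The auxin response element TGTCTC, the sequence bound by auxin response factors, was searched on both strands in the 250 bases before the annotated start of each gene, together with 6 other motifs. It was found before 9 of 57 genes (15.8%), 11.9% of the 664 genes and 10.8% of 19920 tested genes with such a stretch. Of the 13 auxin genes of the set, 6 held it (46.2%): SAUR20, SAUR22, IAA1, GH3.2, GH3.3 and GH3.5. This motif was added after the members were known. Its share among auxin genes outside the set was not taken, so the share within the set cannot be tied to the pattern in elf7-3. The G-box CACGTG, a binding sequence of PIF factors, was found before 3 of 57 genes (5.26%, against 14.5% of the 664 genes and 7.47% of tested genes), namely GH3.2, IAA7 and UMAMIT6. CACATG was found before 13 genes (22.8%, against 17.5% of the 664 genes and 11.3% of tested genes), AATATCT before 8 (14.0%, against 12.8% and 10.005%) and AAAATCT before 11 (19.3%, against 15.2% and 16.1%). GAANNTTC was found before 4 (7.02%, against 8.73% and 9.13%) and TATAAA before 20 (35.1%, against 46.1% in both). A match is a description and not a site of binding. The stretches of 5 of the 6 auxin genes with TGTCTC are printed to show where it lies, and that of IAA29, which had the lowest ratio of elf7-3 to Col at 27 °C among the Aux/IAA genes, because it holds neither TGTCTC nor CACGTG. They run 5′ to 3′ on the strand of the gene and end at the base before its annotated start, in TAIR10.1, with CACGTG and TGTCTC (or its complement GAGACA) in capitals.
SAUR22, chr5:5975088-5975337, minus strand: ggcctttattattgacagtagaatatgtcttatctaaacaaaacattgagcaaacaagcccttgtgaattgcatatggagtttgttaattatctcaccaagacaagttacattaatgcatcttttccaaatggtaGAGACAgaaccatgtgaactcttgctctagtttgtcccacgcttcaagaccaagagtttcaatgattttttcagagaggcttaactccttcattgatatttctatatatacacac
IAA1, chr4:8360746-8360995, plus strand: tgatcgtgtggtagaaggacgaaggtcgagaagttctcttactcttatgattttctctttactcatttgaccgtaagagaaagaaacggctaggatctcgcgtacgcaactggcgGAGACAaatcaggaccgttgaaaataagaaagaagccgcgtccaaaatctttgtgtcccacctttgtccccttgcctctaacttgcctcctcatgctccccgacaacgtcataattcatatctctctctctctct
GH3.3, chr2:9866563-9866812, minus strand: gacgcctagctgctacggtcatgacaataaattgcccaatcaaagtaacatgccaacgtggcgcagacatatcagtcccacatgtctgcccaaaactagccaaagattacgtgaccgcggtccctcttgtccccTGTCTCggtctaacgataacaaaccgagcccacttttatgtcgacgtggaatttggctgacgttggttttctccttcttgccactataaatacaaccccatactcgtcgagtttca
GH3.5, chr4:13653329-13653578, plus strand: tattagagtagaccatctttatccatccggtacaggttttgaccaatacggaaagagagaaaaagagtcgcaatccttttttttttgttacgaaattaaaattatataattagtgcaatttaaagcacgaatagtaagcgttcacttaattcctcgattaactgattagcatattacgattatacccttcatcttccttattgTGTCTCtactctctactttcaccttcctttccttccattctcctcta
GH3.2, chr4:17579368-17579617, plus strand: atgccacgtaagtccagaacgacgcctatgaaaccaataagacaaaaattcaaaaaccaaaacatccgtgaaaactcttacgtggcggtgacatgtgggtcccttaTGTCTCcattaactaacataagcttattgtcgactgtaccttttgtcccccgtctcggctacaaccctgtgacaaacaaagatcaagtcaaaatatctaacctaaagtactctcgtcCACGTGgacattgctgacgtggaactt
IAA29, chr4:15583082-15583331, plus strand: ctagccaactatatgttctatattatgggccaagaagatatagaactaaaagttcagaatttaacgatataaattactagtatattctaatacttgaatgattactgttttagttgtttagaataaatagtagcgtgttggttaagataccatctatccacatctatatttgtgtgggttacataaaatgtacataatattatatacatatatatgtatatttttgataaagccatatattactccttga
In these stretches TGTCTC or its complement began 115 bases before the start of SAUR22, 135 before IAA1, 116 before GH3.3, 47 before GH3.5 and 144 before GH3.2, so its position differed among these genes, and IAA29 has no copy in this window.

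The gap between elf7-3 and Col can lie at 27 °C, at 21 °C or at both, and the rule did not fix which. For each gene the shortfall, the warmth difference in Col minus that in elf7-3, was split into the part by which elf7-3 was above Col at 21 °C and the part by which it was below Col at 27 °C. A gene was called low at 27 °C where the part at 21 °C was at most 0.333 of the shortfall, raised at 21 °C where it was at least 0.667, and both in between. In all, 37 genes were low at 27 °C, 10 were raised at 21 °C and 10 were both. The class low at 27 °C takes in every gene that was below Col at 21 °C too, 20 genes by group means. The median difference of elf7-3 minus Col was -0.83 at 27 °C and 0.17 at 21 °C over the 57 genes, against -0.34 and 0.10 over the 664 genes. By group means 52 of the 57 genes were lower in elf7-3 than in Col at 27 °C, and 37 were higher at 21 °C. All 3 libraries of elf7-3 lay below those of Col at 27 °C for 44 genes (24.3% of all genes). At 21 °C they lay above those of Col for 21 genes (20.7% of all genes) and below them for 11 genes (23.7% of all genes). The rule fixes these values in part. Among the 12 auxin response genes 10 were low at 27 °C, the exceptions being IAA7 and GH3.2. Their part at 21 °C had a median of 5.74% of the shortfall and ranged from -57.6% to 66.2%. A part below 0 means that elf7-3 was below Col at 21 °C as well, so the small median does not mean equality with Col there. Among 8 genes of transport and nutrition the part at 21 °C had a median of 79.9% and ranged from 7.02% to 153%, with 4 raised at 21 °C, 2 both and 2 low at 27 °C.

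**Figure D3:**
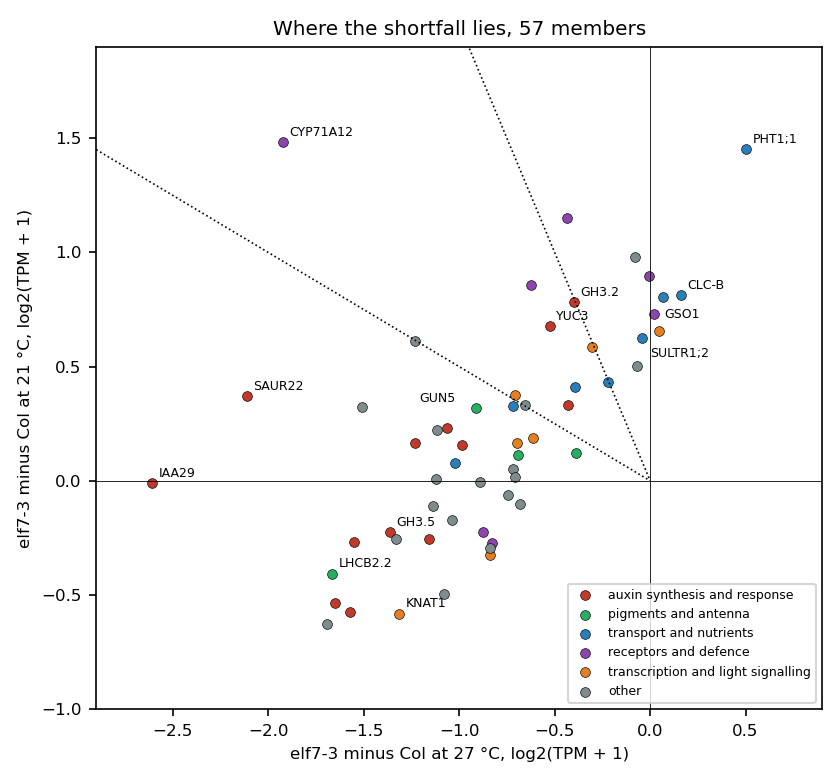
elf7-3 minus Col at 27 °C (horizontal axis) against elf7-3 minus Col at 21 °C (vertical axis), in log2(TPM + 1) of group means, for the 57 genes coloured by role. The dotted lines mark parts at 21 °C of 0.333 and 0.667 of the shortfall. Auxin genes (red) lie left of 0 at 27 °C and mostly below the line of 0.333, low at 27 °C. At 21 °C they lie on both sides of 0. Of 8 transport genes (blue) 4 are raised at 21 °C, 2 are both and 2 are low at 27 °C.

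Pigment and antenna genes were all 4 low at 27 °C in elf7-3. GUN5, the H subunit of magnesium chelatase at the entry to chlorophyll synthesis, had 239, 269 and 289 TPM at 27 °C and 227, 202 and 214 TPM at 21 °C in elf7-3. The line h3.3kd had 415, 455 and 445 TPM at 27 °C and 157, 137 and 177 TPM at 21 °C. Col had 504, 479 and 520 TPM at 27 °C and 172, 179 and 166 TPM at 21 °C. At 27 °C every elf7-3 library was below every Col library, and at 21 °C every one was above. AT1G74470, annotated with geranylgeranyl reductase activity in chlorophyll synthesis, was the most abundant gene of the set, at 1053 ± 59.5 and 746 ± 55.6 TPM in elf7-3, 1903 ± 45.5 and 1028 ± 73.8 TPM in h3.3kd, and 1377 ± 22.8 and 684 ± 16.2 TPM in Col at 27 and 21 °C. It was just inside the rule, with a warmth difference in elf7-3 at 0.494 of Col's. ABA1, the zeaxanthin epoxidase of carotenoid and abscisic acid synthesis, averaged 21.4 ± 2.57 and 15.8 ± 0.829 TPM in elf7-3, 41.2 ± 2.25 and 13.0 ± 0.988 TPM in h3.3kd, and 35.2 ± 1.98 and 14.5 ± 0.512 TPM in Col. LHCB2.2, a light-harvesting antenna protein of photosystem II, averaged 17.5 ± 2.80 and 8.17 ± 3.61 TPM in elf7-3, 26.6 ± 1.21 and 6.28 ± 1.12 TPM in h3.3kd, and 57.6 ± 4.91 and 11.2 ± 1.53 TPM in Col. LHCB2.2 was thus below Col at 27 °C in both mutants, although its warmth difference in h3.3kd met the rule. Of 13 antenna genes 4 were warm-induced in Col, and LHCB2.2 alone was in the set. LHCB2.1, LHCB4.2 and LHCB6 missed it, with warmth differences of 1.27, 1.51 and 0.96 in elf7-3, 1.74, 1.86 and 1.14 in h3.3kd, and 2.54, 2.57 and 1.63 in Col. All 3 were under 0.75 of Col in h3.3kd, and LHCB2.1 was within the limit set on elf7-3.

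Of the 8 transport and nutrient genes 4 were raised in elf7-3 at 21 °C, 2 were both and 2 were low at 27 °C. PHT1;1, a phosphate uptake transporter, had 91.6, 114 and 91.6 TPM at 27 °C and 80.7, 71.6 and 86.3 TPM at 21 °C in elf7-3. In h3.3kd it had 76.0, 101 and 109 TPM at 27 °C and 38.6, 40.1 and 35.2 TPM at 21 °C. Its Col libraries had 68.4, 67.2 and 73.1 TPM at 27 °C and 26.0, 28.7 and 30.6 TPM at 21 °C. PHT1;1 was above Col in every elf7-3 library at both temperatures, and was the only 1 of the 57 genes without overlap in that direction at 27 °C (21.3% of all genes). NRT1.1, a nitrate transporter and sensor, averaged 130 ± 16.1 and 101 ± 5.97 TPM in elf7-3, 183 ± 17.7 and 78.8 ± 1.21 TPM in h3.3kd, and 152 ± 15.7 and 74.5 ± 3.70 TPM in Col at 27 and 21 °C. SULTR1;2, a sulfate uptake transporter of roots, averaged 35.0 ± 4.87 and 23.2 ± 2.91 TPM in elf7-3, 65.7 ± 8.84 and 17.7 ± 1.01 TPM in h3.3kd, and 36.1 ± 3.34 and 14.7 ± 1.11 TPM in Col. Both were higher in elf7-3 than in Col in every library at 21 °C and overlapped with Col at 27 °C. CLC-B, an anion channel family member, and SUFE2, a chloroplast protein of iron-sulfur cluster supply, were likewise raised at 21 °C, at 6.94 ± 1.24 and 23.9 ± 2.52 TPM in elf7-3, 2.29 ± 0.647 and 12.1 ± 1.57 TPM in h3.3kd, and 3.52 ± 0.449 and 13.2 ± 0.195 TPM in Col. AMT1;2, an ammonium transporter, and NAS1, which makes the metal chelator nicotianamine, were low at 27 °C, at 35.3 ± 4.55 and 21.7 ± 4.79 TPM in elf7-3, 65.7 ± 10.2 and 28.7 ± 2.08 TPM in h3.3kd, and 58.6 ± 6.93 and 45.1 ± 8.70 TPM in Col. At 21 °C they stood at 34.7 ± 1.66 and 13.99 ± 6.19 TPM in elf7-3, 28.2 ± 2.004 and 10.2 ± 2.13 TPM in h3.3kd, and 27.5 ± 0.983 and 13.2 ± 1.53 TPM in Col. AMT1;2 was thus also above Col in every elf7-3 library at 21 °C, and its part at 21 °C was 31.3% of the shortfall. UMAMIT6, of a family of amino acid transporters, averaged 11.1 ± 0.466 and 7.48 ± 0.786 TPM in elf7-3 at 27 and 21 °C. It was above Col in h3.3kd in every library, at 31.9 ± 3.00 and 15.3 ± 1.36 TPM, against 14.9 ± 0.924 and 5.38 ± 0.362 TPM in Col at 27 and 21 °C.

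Of 14 root marker genes 12 had a higher group mean in elf7-3 than in Col at 21 °C, while EXPA18 and PYK10 had a lower one. The widest gaps at 21 °C were those of IRT1, at 51.4 TPM in elf7-3 and 12.8 TPM in Col, and FRO2, at 13.1 TPM in elf7-3 and 3.05 TPM in Col. The sum of 13 root marker genes, leaving out the very abundant PYK10, was 258 to 352 TPM in elf7-3 at 27 °C against 335 to 436 TPM in Col, and 238 to 279 TPM in elf7-3 at 21 °C against 144 to 151 TPM in Col. In h3.3kd it was 155 to 203 TPM at 27 °C and 129 to 147 TPM at 21 °C. With PYK10 included, the 14 genes summed to 1988 to 2208 TPM in elf7-3 at 21 °C, which overlapped with 2054 to 2332 TPM in Col. In the mean of both temperatures 5 of the 14 genes were higher (21.2% of all genes) and 1 was lower (23.2% of all genes) in elf7-3 than in Col by the test described below. None was at 0, the lowest group mean being 1.73 TPM for RHD6 in h3.3kd at 27 °C. The part of root RNA in the levels of PHT1;1, SULTR1;2, NRT1.1, AMT1;2 and NAS1 was not tested. Of the 14 genes 6 were warm-induced in Col, and all 6 were blunted in both mutants.

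Genes of transcription and light signalling numbered 7. HAT2, a homeobox-leucine zipper factor of the shade response, averaged 43.7 ± 4.60 and 26.7 ± 3.34 TPM in elf7-3, 90.2 ± 11.3 and 23.3 ± 4.05 TPM in h3.3kd, and 71.5 ± 3.01 and 23.64 ± 1.65 TPM in Col at 27 and 21 °C. PRE6, a small helix-loop-helix protein that promotes elongation, averaged 6.63 ± 1.62 and 4.69 ± 0.783 TPM in elf7-3, 8.85 ± 1.98 and 3.07 ± 0.216 TPM in h3.3kd, and 11.5 ± 1.27 and 3.39 ± 0.320 TPM in Col. HAT2 was low at 27 °C alone, whereas PRE6 was both low at 27 °C and raised at 21 °C. KNAT1, a homeobox regulator of meristems and stems, had 21.6, 20.2 and 21.2 TPM at 27 °C and 16.9, 17.2 and 14.4 TPM at 21 °C in elf7-3. Its values were 37.9, 38.6 and 41.1 TPM at 27 °C and 15.96, 16.8 and 16.5 TPM at 21 °C in h3.3kd, and 50.6, 49.6 and 60.9 TPM at 27 °C and 26.9, 22.6 and 24.5 TPM at 21 °C in Col. KNAT1 was below Col in both mutants at both temperatures. SPA1, a partner of COP1 in repressing light signalling, averaged 18.2 ± 0.682 and 12.6 ± 1.05 TPM in elf7-3, 29.1 ± 0.844 and 14.8 ± 0.615 TPM in h3.3kd, and 33.3 ± 1.264 and 15.99 ± 0.975 TPM in Col. WRKY72, a defence-related WRKY factor, was raised at 21 °C, at 6.55 ± 0.920 TPM in elf7-3, 3.995 ± 0.375 TPM in h3.3kd and 3.79 ± 0.0533 TPM in Col, and the libraries of elf7-3 and Col overlapped at 27 °C, where the means were 10.06, 8.21 and 9.73 TPM.

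Receptor and defence genes held the values of the widest spread. CYP71A12, a cytochrome P450 of indolic defence compounds, had the largest shortfall of the set by group means. It had 0.585, 0.877 and 5.46 TPM at 27 °C and 1.42, 16.8 and 1.31 TPM at 21 °C in elf7-3. The values were 0, 1.39 and 14.3 TPM at 27 °C and 0, 1.70 and 0.0848 TPM at 21 °C in h3.3kd, and 0.495, 10.6 and 23.49 TPM at 27 °C and 4.95, 0 and 0.0873 TPM at 21 °C in Col. The temperatures overlapped in all 3 genotypes, and the fitted warmth difference in elf7-3 was -0.79 ± 1.08. PER4, a peroxidase, overlapped between temperatures in elf7-3 as well, at 6.59 ± 4.42 TPM at 27 °C and 6.18 ± 4.56 TPM at 21 °C. AT5G59680, a leucine-rich repeat kinase, was more even, with 2.28, 4.48 and 3.89 TPM at 27 °C and 3.14, 6.18 and 4.24 TPM at 21 °C in elf7-3. It had 18.08, 17.95 and 17.56 TPM at 27 °C and 5.10, 6.64 and 4.24 TPM at 21 °C in h3.3kd, against 6.09, 5.58 and 6.39 TPM at 27 °C and 1.80, 2.01 and 2.33 TPM at 21 °C in Col. h3.3kd was above Col in every library of AT5G59680, and CYP71A12 and AT5G59680 were the only 2 of the 57 genes with a warmth difference below 0 in elf7-3. GSO1, a receptor kinase of the root endodermal barrier, was raised at 21 °C, at 21.3 ± 0.521 TPM in elf7-3, 14.8 ± 1.42 TPM in h3.3kd and 12.4 ± 0.714 TPM in Col, and stood at 31.2 ± 1.04, 33.1 ± 2.44 and 30.8 ± 3.24 TPM at 27 °C. AT1G51850, another leucine-rich repeat kinase, had the same form, at 11.42 ± 0.160 TPM in elf7-3, 7.36 ± 1.396 TPM in h3.3kd and 5.67 ± 0.322 TPM in Col at 21 °C.

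Of the remaining 18 genes 15 were low at 27 °C. AT5G02760, a protein phosphatase of family 2C, had 42.0, 58.7 and 31.5 TPM at 27 °C and 24.6, 19.0 and 18.03 TPM at 21 °C in elf7-3. It had 66.6, 82.1 and 57 TPM at 27 °C and 15.7, 11.8 and 7.18 TPM at 21 °C in h3.3kd, against 119, 93.0 and 103 TPM at 27 °C and 13.5, 14.9 and 10.9 TPM at 21 °C in Col. The temperatures stood apart in each genotype, and the warmth difference in elf7-3, 1.06 by group means, was the largest of the set. MAKR6, a membrane-associated kinase regulator, averaged 7.41 ± 1.19 and 5.53 ± 1.35 TPM in elf7-3, 12.8 ± 1.85 and 2.31 ± 0.943 TPM in h3.3kd, and 23.0 ± 4.09 and 4.22 ± 1.18 TPM in Col. ATPMEPCRD, annotated in the invertase and pectin methylesterase inhibitor superfamily, was below Col in every library of both mutants, at 18.3 ± 0.642 and 14.2 ± 1.34 TPM in elf7-3, 13.5 ± 3.12 and 4.40 ± 0.253 TPM in h3.3kd, and 61.4 ± 6.91 and 22.4 ± 2.36 TPM in Col. P1R3, annotated as an uncharacterized protein, averaged 5.24 ± 1.74 and 2.33 ± 0.418 TPM in elf7-3, 11.6 ± 2.31 and 2.54 ± 0.537 TPM in h3.3kd, and 12.5 ± 0.964 and 1.85 ± 0.926 TPM in Col. WAG2, a kinase that acts on auxin efflux carriers, was classed as both, with a part at 21 °C of 33.5% of the shortfall, just past the limit. At 21 °C it had 2.07, 3.32 and 3.61 TPM in elf7-3 and 2.17, 2.25 and 2.12 TPM in Col, so the libraries overlapped there. AT3G20380, a TRAF-like protein, was raised at 21 °C instead, with means of 8.13, 19.6 and 8.64 TPM at 27 °C and 6.74, 5.05 and 2.92 TPM at 21 °C in elf7-3, h3.3kd and Col. The other genes of this group spanned fitted warmth differences of 0.24 to 0.93 in elf7-3, 0.79 to 1.87 in h3.3kd and 1.04 to 1.98 in Col.

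The mean over both temperatures was not used by the rule, apart from the minimum of 5 TPM in Col, and is the only measure tested. The test was made with limma on log2(TPM + 1), two-sided, with Benjamini-Hochberg adjustment over all 20048 genes and a threshold of 0.05. In elf7-3 minus Col, 9 of the 57 genes were higher (15.8%, against 21.2% of all genes) and 34 were lower (59.6%, against 23.2% of all genes), with a median of -0.35 against -0.01 over all genes. A gene that equals Col at 21 °C and is short of it at 27 °C must be lower in this mean, so the count restates how the shortfall divides. The same holds for the p-values of single genes in elf7-3 minus Col, which are no support apart from the choice. IAA29, for one, had a fitted difference of -2.61 at 27 °C and -0.09 at 21 °C. All 34 lower genes were among the 37 low at 27 °C, and all 9 higher genes among the 10 raised at 21 °C, a match that follows largely from how the division is defined. The lowest 5 were IAA29 (-1.35 ± 0.14, limma adjusted p = 7.45e-07), ATPMEPCRD (-1.15 ± 0.092, adjusted p = 3.00e-08), SAUR23 (-1.11 ± 0.14, adjusted p = 5.66e-06), SAUR20 (-1.10 ± 0.15, adjusted p = 1.45e-05) and LHCB2.2 (-1.07 ± 0.13, adjusted p = 5.65e-06). The highest 5 were PHT1;1 (0.97 ± 0.080, limma adjusted p = 4.34e-08), CLC-B (0.49 ± 0.13, adjusted p = 0.00600), AT3G20380 (0.45 ± 0.093, adjusted p = 7.99e-04), AT1G51850 (0.44 ± 0.092, adjusted p = 8.33e-04) and SUFE2 (0.44 ± 0.16, adjusted p = 0.0292). The SUFE2 call was lost without Col replicate 3 at 21 °C, Col replicate 1 or 2 at 27 °C, elf7-3 replicate 2 at 21 °C, or elf7-3 replicate 2 or 3 at 27 °C, with 0.40 to 0.43 in those fits. By role, 9 of 12 auxin response genes and all 4 pigment and antenna genes were lower (23.2% of all genes). Of 8 transport genes 4 were higher (21.2% of all genes) and 2, NAS1 and AMT1;2, were lower. These counts restate the division by role, and the roles were set after the members were seen. The AMT1;2 call (-0.20, limma adjusted p = 0.0437) was lost without Col replicate 1 or 2 at either temperature, any elf7-3 replicate at 21 °C, or elf7-3 replicate 1 or 3 at 27 °C, and with no filter or median-of-ratios scaling (-0.21 to -0.15 over these). The lower call of AT1G74470 (-0.13 ± 0.044, adjusted p = 0.0192) was lost without elf7-3 replicate 3 at 21 °C and under median-of-ratios scaling (-0.11 in both).

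In h3.3kd minus Col, which uses the same Col libraries, 15 of the 57 genes were higher (26.3%, against 21.3% of all genes) and 22 were lower (38.6%, against 34.3% of all genes), with a median of -0.12 against -0.06 over all genes. Those shares lie near the background. With median-of-ratios scaling the split was 18 higher and 17 lower among the 57 genes, and 5687 higher and 5327 lower over all genes, where the deposited values gave 4271 and 6867. The highest were AT5G59680 (1.23 ± 0.14, limma adjusted p = 6.74e-07), UMAMIT6 (1.195 ± 0.067, adjusted p = 1.02e-10) and SAUR22 (1.05 ± 0.20, adjusted p = 2.03e-04). The lowest were ATPMEPCRD (-2.12 ± 0.092, limma adjusted p = 4.12e-12), IAA29 (-0.96 ± 0.14, adjusted p = 1.62e-05) and LHCB2.2 (-0.91 ± 0.13, adjusted p = 1.65e-05).

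In the mean of both temperatures the SAUR cluster differed from Col in opposite directions in the 2 mutants. In elf7-3 minus Col the means were -1.10 ± 0.15 for SAUR20, -0.45 ± 0.17 for SAUR21 (limma adjusted p = 0.0393), -0.87 ± 0.20 for SAUR22 (adjusted p = 0.00156) and -1.11 ± 0.14 for SAUR23. In h3.3kd minus Col they were 0.52 ± 0.15 (limma adjusted p = 0.00674), 0.72 ± 0.17 (adjusted p = 0.00157), 1.05 ± 0.20 (adjusted p = 2.03e-04) and 0.56 ± 0.14 (adjusted p = 0.00240) in the same order. These directions did not all hold at 21 °C. By group means at 21 °C, elf7-3 minus Col was -0.57, 0.23, 0.37 and -0.54, and h3.3kd minus Col was 0.26, 0.51, 0.81 and -0.04. The falls of SAUR21 and SAUR22 in elf7-3 thus came from 27 °C alone, where the rule bears on them, and so did the rise of SAUR23 in h3.3kd. The fall of SAUR21 in elf7-3 was not called without Col replicate 1 or 2 at 21 °C, Col replicate 2 or 3 at 27 °C, elf7-3 replicate 3 at 21 °C, or elf7-3 replicate 1 or 3 at 27 °C, where it was -0.44 to -0.29. It was not called either with a pseudocount of 0.1 (-0.49), with no filter, or with only the 2 genotypes compared (-0.45 in both). The other 7 calls held in each of 26 alternative fits, which reuse the same libraries and chosen genes and so add no separate support. Since reads may be shared within the cluster, the calls of its genes may not be separate either. Of the Aux/IAA and GH3 genes, IAA29 and GH3.3 were lower in both mutants, at -1.35 and -0.92 in elf7-3 and at -0.96 and -0.67 in h3.3kd. IAA2 was lower in both as well, at -0.71 in elf7-3 and -0.20 in h3.3kd (limma adjusted p = 0.0318). Its call in h3.3kd was lost under median-of-ratios scaling (-0.12), and without Col replicate 2 or 3 at 21 °C, Col replicate 3 at 27 °C, h3.3kd replicate 1 or 3 at 21 °C, or h3.3kd replicate 3 at 27 °C (-0.20 to -0.15). IAA7 (-0.56 ± 0.063, limma adjusted p = 6.75e-07) and GH3.2 (-0.53 ± 0.10, adjusted p = 2.59e-04) were lower in h3.3kd and were not called in elf7-3 (-0.05 and 0.18). IAA1 (0.17 ± 0.089, limma adjusted p = 0.111) and GH3.5 (-0.06 ± 0.070, adjusted p = 0.484) were not called in h3.3kd, IAA1 being called under median-of-ratios scaling (0.24) and without h3.3kd replicate 3 at 21 °C (0.26). YUC3 was higher in h3.3kd (0.71 ± 0.11, limma adjusted p = 2.72e-05) and was not called in elf7-3 (0.08 ± 0.11, adjusted p = 0.570).

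**Figure D4:**
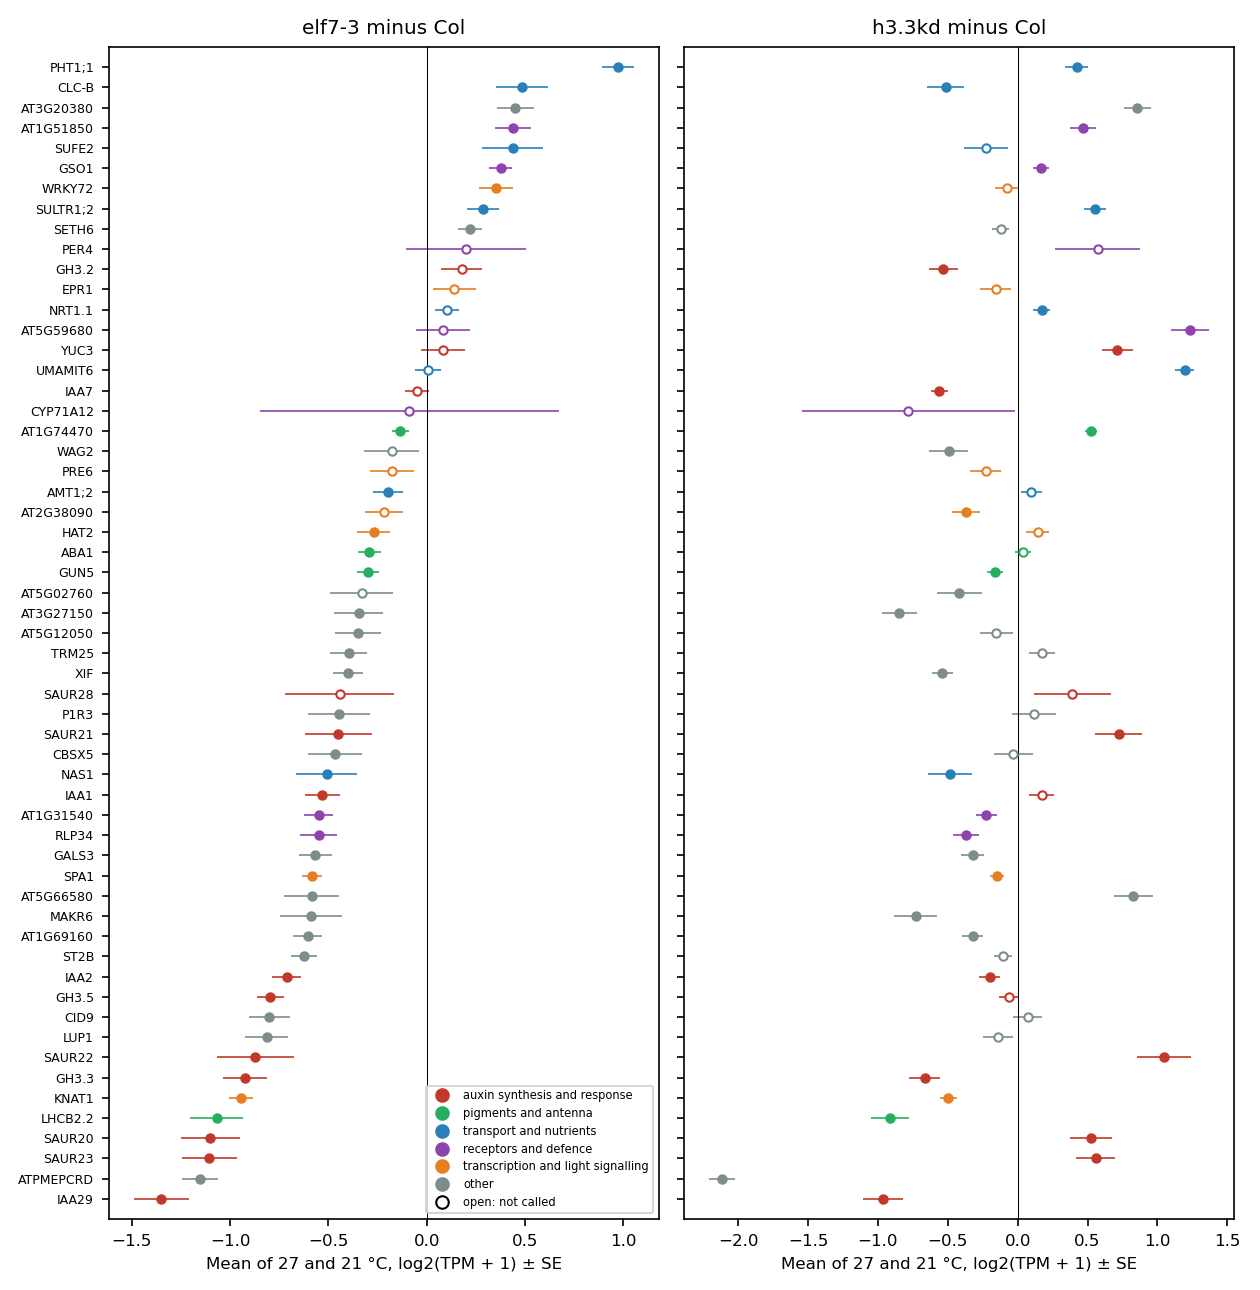
elf7-3 minus Col (left) and h3.3kd minus Col (right) in the mean of 27 and 21 °C, log2(TPM + 1) ± SE from limma, for the 57 genes in the order of the left panel. Filled points have an adjusted p under 0.05 and open points do not. SAUR20 to SAUR23 lie left of 0 in elf7-3 and right of 0 in h3.3kd, and IAA29, ATPMEPCRD and LHCB2.2 lie left of 0 in both.

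Other genes of the same pathways were placed beside the set. Of 22 auxin response genes in a list of the pathway 21 passed the filter, 15 were warm-induced in Col and 11 were in the set. The other 4 were IAA6, blunted in both mutants, and IAA19, SAUR19 and SAUR24. SAUR24 had a warmth difference of 1.06 in elf7-3 and 2.60 in h3.3kd against 1.29 in Col, so that it was kept in elf7-3 by ratio, although its level was 5.07 TPM in elf7-3, 24.7 TPM in h3.3kd and 11.7 TPM in Col at 27 °C. SAUR19 had 1.07, 2.08 and 1.47 in elf7-3, h3.3kd and Col. In elf7-3 minus Col over both temperatures 13 of the 21 genes were lower (23.2% of all genes) and 1 was higher (21.2% of all genes), with a median of -0.50. In h3.3kd minus Col 9 were lower (34.3% of all genes) and 7 higher (21.3% of all genes), with a median of -0.06. Of 5 warm-induced growth regulators, PRE6 and HAT2 were in the set and PIF4, PIF5 and HFR1 were not. PIF4 averaged 18.8 TPM at 27 °C and 12.2 TPM at 21 °C in elf7-3, 11.37 and 9.65 TPM in h3.3kd, and 19.3 and 8.52 TPM in Col. Its mean in elf7-3 was thus within 1 TPM of that in Col at 27 °C and above it at 21 °C. The warmth difference of PIF4 was therefore smaller in elf7-3 than in Col, and smaller still in h3.3kd. None of 8 warm-induced heat shock genes was in the set, and 7 of them had at least 0.75 of Col's warmth difference in elf7-3. HSP70-4, for one, had a warmth difference of 2.43 in elf7-3, 3.03 in h3.3kd and 2.87 in Col. None of 5 warm-induced clock genes was in the set either, all 5 having at least 0.75 of Col's difference in elf7-3. EPR1, a homeodomain-like gene of the REVEILLE family to which the clock genes RVE1 and RVE4 belong, was not on that list and was in the set. It averaged 11.2 ± 1.71 and 5.82 ± 1.01 TPM in elf7-3, 12.1 ± 0.959 and 3.17 ± 0.640 TPM in h3.3kd, and 14.1 ± 2.50 and 3.55 ± 0.618 TPM in Col at 27 and 21 °C. The set holds 57 of the 664 warm-induced genes, so the absence of lists as short as those of heat shock and clock genes is no result about them. Over the 664 genes the median ratio of the warmth difference in elf7-3 to that in Col was 0.70. The warm-induced genes of these lists differed in whether elf7-3 kept the warmth difference, with no test made of the lists.

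Along the genome the 57 genes lay on all chromosomes, with 17 on chromosome 5, 13 on chromosome 1, 11 on chromosome 3 and 8 each on chromosomes 2 and 4. Their median annotated span was 2165 bases with 3 exons, against 2056 bases and 3 exons for the 664 genes and 2371 bases and 4 exons for all tested genes with an annotation. Single-exon genes were 15 of the 57 (26.3%), 23.64% of the 664 genes and 16.02% of tested genes. XIF, a myosin, was the longest, at 10100 bases and 41 exons, and SAUR28 the shortest at 587 bases.

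The thresholds cut a continuous range. For the ratio of elf7-3 to Col, AT1G74470, AT1G31540 and IAA2 were just inside at 0.494, 0.497 and 0.498, and ACS4, CYP71B12 and GA20OX1 just outside at 0.510, 0.511 and 0.524. For the ratio of h3.3kd to Col, TRM25, AT2G38090 and IAA2 were just inside at 0.753, 0.757 and 0.759, and AT5G06740, AT1G68620 and AT1G76720 just outside at 0.726, 0.711 and 0.705. For the warmth difference in Col, AT1G74470, SPA1 and NRT1.1 were just inside at 1.01, 1.01 and 1.02, and LAC5, AT1G29460 and COL1 just outside at 0.997, 0.99 and 0.98. For the level in Col at 27 °C, CBSX5, YUC3 and AT5G59680 were just inside at 5.05, 5.46 and 6.02 TPM, and ESE3, AT3G50800 and AT1G11540 just outside at 4.60, 4.55 and 4.26 TPM. With each of 18 libraries left out in turn, 24 of the 57 genes met the rule every time, among them IAA1, IAA29, SAUR22, SAUR23, GH3.2, GH3.3, GH3.5, YUC3, GUN5, ABA1 and PHT1;1. IAA2 and TRM25 met it least often, in 9 of the 18 sets.

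The rule was also applied to 2 of the 3 replicate numbers and the chosen genes were then read in the libraries left out. With replicate 1, 2 or 3 left out, 64, 70 and 47 genes were chosen, of which 38, 45 and 37 were among the 57. In the libraries left out the median warmth difference of the chosen genes was 0.49, 0.69 and 0.47 in elf7-3, 1.12, 1.29 and 1.53 in h3.3kd, and 1.09, 1.21 and 1.42 in Col. The difference was smaller in elf7-3 than in Col for 50 of 64, 58 of 70 and 44 of 47 genes (78.1%, 82.9% and 93.6%). Over all genes that met both conditions on Col in the choosing libraries, it was smaller in elf7-3 for 67.7%, 74.5% and 77.5%, so these shares stand over a high background. Their medians in the libraries left out were 0.86, 1.01 and 0.97 in elf7-3, 0.82, 0.90 and 0.95 in h3.3kd, and 1.195, 1.28 and 1.36 in Col. Over these genes h3.3kd thus had the lowest median each time. The whole rule held again for 20, 18 and 26 of the chosen genes. Read in libraries that did not choose them, the chosen genes kept the lowest median in elf7-3 each time, while not all of them met every threshold again.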

How the data were processed

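Total RNA of 18 seedling libraries had been sequenced, and the authors deposited 1 table of TPM. Per the submitters' processing notes, HTSeq 0.11.2, HISAT2 2.1.10, DESeq2 1.26.0 and fastp 0.20.1 were used with the build TAIR10. The row names carry Araport11.447. How TPM, gene lengths and strandedness were set is not given in the sources used here. TPM keep no depth, so read depth is unknown.

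From the deposited TPM the rule was applied to group means. The 20048 genes that reached 1 TPM in 3 or more libraries were fitted as log2(TPM + 1) with limma 3.58.1 in R 4.3.3 (trended prior, 1 mean per group, 12 residual degrees of freedom), and the code was tested on simulated data. A fold change on this scale understates that of low genes. Coordinates and sequences were read from the RefSeq copy of TAIR10.1, by locus tag, with all 57 members matched. Python 3.11.15, pandas 2.3.3, numpy 2.4.6 and matplotlib 3.10.9 were used.

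The members and gene lists were chosen with earlier results of these data known, and roles and TGTCTC after the members were seen. Genes named are the 12 largest shortfalls, the 8 most abundant, the extremes of both tested comparisons, members of gene lists and those at the thresholds. SAUR28, KNAT1, SULTR1;2, EPR1 and further examples of each role were added after their values were seen. Alternatives tried are in the closing section.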

Additional observations from a re-analysis of the deposited data

How the results depend on the processing

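The rule gave 57 genes as deposited, 62 with a pseudocount of 0.1 (47 shared), 48 with median-of-ratios scaling (all shared), 57 without organelle genes, 46 with a minimum of 10 TPM, 59 with means of log2 values (56 shared), and 46 to 64 with 1 library left out. Counts of called genes moved by over 1.5 times only when a 2-fold change was asked for as well. Then 0 members were higher and 5 lower in elf7-3 minus Col by limma (100 and 142 of all genes), and 3 were higher and 1 lower in h3.3kd minus Col (251 and 554 of all genes). With 1 library left out, 8 to 9 members were higher and 29 to 35 lower in elf7-3 minus Col (3812 to 4352 and 4164 to 4731 of all genes), and 13 to 17 higher and 20 to 23 lower in h3.3kd minus Col (3927 to 4297 and 6370 to 6870 of all genes). Replicate numbers did not pair the libraries: deviations of same-numbered libraries correlated at -0.15 to 0.17 (median -0.01), and those of different numbers at -0.17 to 0.14. With a replicate block, 9 members were higher and 34 lower in elf7-3 minus Col (4150 and 4554 of all genes), and 15 and 22 in h3.3kd minus Col (4219 and 6798). Under this block AMT1;2 lost its call in elf7-3 (-0.20) and AT5G02760 gained one (-0.33). For single members in the 8 alternatives that keep every library of the groups compared, the block included, 890 values kept their side of the threshold, 16 lost a call and 6 gained one. With 1 library left out, 1983 kept it, 60 lost a call and 9 gained one, and no value changed sign while called. The cause of these moves was not tested. Calls that depend on a library are given beside their values for SUFE2, SAUR21, AMT1;2, AT1G74470, IAA1 and IAA2. Low members, such as CYP71A12 and PER4, have the widest errors, and depth behind them is unknown.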
